A study of Homo sapiens with 7 samples.

Results

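Accessible regions in gene deserts were the 3685 intervals of vehicle library 6 that lay outside every protein-coding gene body and more than 200 kb from every protein-coding gene end, and that also overlapped a region in at least 1 other vehicle library and at least 2 stressed libraries. They were chosen from 53398 intervals of that library, of which 38149 met the requirement on the other libraries. Accessibility was measured by ATAC-seq, which reads where the Tn5 transposase can insert adapters into chromatin. The cells were neurons grown from LUHMES, an immortalised human mesencephalic cell line that becomes neuronal when tetracycline shuts off its v-myc transgene. All cells were labelled wild type and had been differentiated for 6 days with dibutyryl cAMP, GDNF and tetracycline. The 4 stressed libraries (6, 7, 8 and 9) came from cells held for 8 hours in 25 µM antimycin A, which blocks electron flow through respiratory complex III, and 10 µM oligomycin, which blocks the mitochondrial ATP synthase. The 3 vehicle libraries (6, 7 and 8) came from cells given DMSO. The labels describe the 7 samples as independent batches of 1 cell line. The study set open chromatin under mitochondrial stress against the control condition.

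A gene desert is a long stretch of a chromosome without protein-coding genes. Deserts often flank genes that direct embryonic development or build synapses, and many hold enhancers, stretches of DNA that bind transcription factors and act on a promoter far away. Others surround centromeres or form the short arms of the acrocentric chromosomes, where satellite repeats and the ribosomal RNA gene arrays lie. Long noncoding RNAs and microRNAs can be transcribed within deserts, so a desert in this sense is not without transcription.

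The 7 lists of regions differed in length and depth. They held 53063 to 248900 regions in the stressed libraries and 32828 to 159902 in the vehicle libraries. Their relative depth, read from the background that the fold enrichments imply, was 0.816 to 5.99 fragments in the stressed libraries and 0.492 to 1.43 in the vehicle libraries. Read totals were not analysed here. Regions at the ends of neuronal marker genes were among the 32828 strongest of each library for 7 of 7 genes, except in vehicle 6 with 6 of 7. Of 9 dopaminergic marker genes, 4 had such a region in each stressed library and 4 or 5 in each vehicle library, and TH, DDC and SLC18A2 had one in no library. Glial markers reached 1 to 4 of 7 genes in stressed and 0 to 3 in vehicle libraries, and mesenchymal and endothelial markers 1 or 2 of 5 in stressed and 0 in vehicle libraries. The genes of this last group were PDGFRB and COL1A1, while COL3A1, PECAM1 and CDH5 had such a region in no library. In such bulk samples, fewer open cells and weaker opening in every cell cannot be told apart.

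No genome sequence was used here, so the letters of most desert regions are not shown. The starts of long noncoding RNAs inside desert regions could be read from RefSeq promoter windows (build GRCh38.p14), which run from 250 bases before to 50 after a start. The 4 windows below belong to the long noncoding RNA starts with the highest lowest rank over the 7 libraries, and each lies whole within an accessible desert region. Capitals mark the motifs found, a GC box (GGGCGG, bound by SP and KLF factors) in LINC00662 and LINC02826 and a CCAAT box (CCAAT, bound by NFY) in LOC101928516, on either strand. LOC101929540 held none of the 9 motifs searched.
LOC101929540: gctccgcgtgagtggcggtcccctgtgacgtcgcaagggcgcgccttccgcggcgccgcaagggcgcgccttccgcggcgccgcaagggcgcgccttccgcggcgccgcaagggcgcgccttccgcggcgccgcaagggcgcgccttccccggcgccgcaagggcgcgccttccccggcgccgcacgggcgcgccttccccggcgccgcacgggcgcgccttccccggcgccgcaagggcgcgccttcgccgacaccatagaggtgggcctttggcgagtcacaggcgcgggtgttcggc
LINC00662: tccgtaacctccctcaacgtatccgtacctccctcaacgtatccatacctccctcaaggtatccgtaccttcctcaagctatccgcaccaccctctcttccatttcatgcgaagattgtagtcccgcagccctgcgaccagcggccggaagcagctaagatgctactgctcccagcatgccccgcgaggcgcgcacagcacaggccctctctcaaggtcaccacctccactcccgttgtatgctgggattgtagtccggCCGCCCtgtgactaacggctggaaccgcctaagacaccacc
LINC02826: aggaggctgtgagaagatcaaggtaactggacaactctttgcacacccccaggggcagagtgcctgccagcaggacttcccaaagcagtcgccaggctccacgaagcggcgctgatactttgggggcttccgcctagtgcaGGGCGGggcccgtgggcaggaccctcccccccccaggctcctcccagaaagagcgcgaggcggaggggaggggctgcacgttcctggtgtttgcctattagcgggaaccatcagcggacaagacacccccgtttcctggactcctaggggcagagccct
LOC101928516: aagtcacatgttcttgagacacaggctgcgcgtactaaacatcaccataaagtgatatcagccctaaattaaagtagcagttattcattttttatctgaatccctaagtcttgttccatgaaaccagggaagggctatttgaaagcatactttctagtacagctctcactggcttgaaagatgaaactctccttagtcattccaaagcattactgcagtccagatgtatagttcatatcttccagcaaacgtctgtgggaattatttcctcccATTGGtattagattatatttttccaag
The windows lie at chr10:38402915-38403214 on the plus strand, chr19:27793891-27794190 on the minus strand, chr12:125983273-125983572 on the plus strand and chr6:74069201-74069500 on the plus strand. GC content was 80.0% in LOC101929540, 59.3% in LINC00662, 64.3% in LINC02826 and 38.3% in LOC101928516.

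A microRNA hairpin, MIR148A, was also covered by a desert region, chr7:25949906-25950668. Its main product, miR-148a-3p, is shown with the seed (bases 2 to 8), the part that pairs with target messages, in capitals.
hsa-miR-148a-3p: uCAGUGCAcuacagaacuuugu
The hairpin lies at chr7:25949919-25949986 on the minus strand. The region over it was present in 3 stressed and 2 vehicle libraries, with a fold enrichment of 10.1, 18.2 and 7.20 in stressed 6, 7 and 9 and of 4.69 and 12.7 in vehicle 6 and 8. It was absent from the lists of stressed 8 and vehicle 7. Fold enrichments are the authors' values for each peak and depend on the depth of a library, so they are not compared between libraries.

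The desert regions lay far from genes by construction, and many lay much farther than the limit. The distance to the nearest protein-coding gene end had a median of 408.9 kb, quartiles of 280.8 and 679.5 kb and a maximum of 4840.6 kb, and 1442 regions (39.1%) lay beyond 500 kb. The regions nearest above the limit lay 200.2 kb from a gene end on chromosome 16, 200.4 kb between EDIL3 and COX7C and 200.5 kb between CDH8 and CDH11, with vehicle 6 folds of 4.02, 10.1 and 4.69. Just below it were regions at 199970 bp between KCNU1 and ZNF703, 199951 bp between FBXO11 and FOXN2 and 199950 bp between CWH43 and DCUN1D4, with folds of 4.02, 6.70 and 5.36.

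Most desert regions touched no annotated gene at all. Of the 3685 regions, 2574 (69.9%) overlapped no RefSeq gene of any kind and 897 (24.3%) lay in the body of a long noncoding RNA away from its start. A further 87 lay in pseudogenes, 58 at the start of a long noncoding RNA, 55 at immune receptor segments or loci, 11 in ribosomal RNA genes and 3 at other small RNA genes. The immune receptor group included 18 regions at the immunoglobulin kappa locus, 17 at the T cell receptor beta locus, 11 at the T cell receptor alpha locus and 8 at the immunoglobulin heavy chain locus, all counted as deserts because their segments are not annotated as protein-coding.

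Deserts could be divided by position, a division made after the data were seen. In all, 477 regions (12.9%) lay around centromeres or on acrocentric short arms, in 22 deserts, and 3208 (87.1%) lay in 623 deserts of the chromosome arms. The centromeric and acrocentric regions were wider, with a median of 492 bp and 129 regions (27.0%) over 1 kb, against 354 bp and 89 regions (2.77%) in the arms. They reached a fold of 181.0 in vehicle 6, against 28.2 in the arms. Chromosome 17 had 85 of its 93 desert regions in the centromeric class, chromosome 22 had 78 of 85 and chromosome 21 had 101 of 159. Chromosome 4 held the most desert regions, 321, of which 301 lay in the arms, and chromosome 19, which is dense in genes, held 10.

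**Figure D1:**
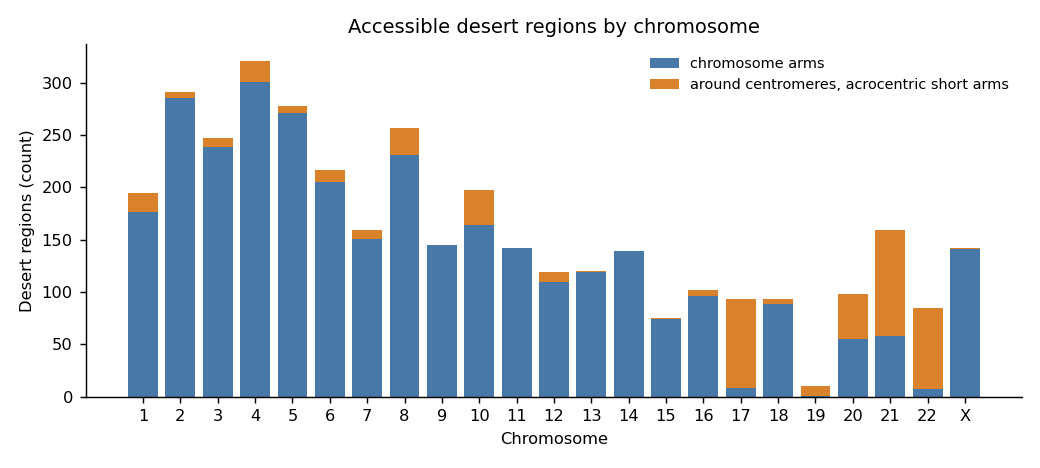
Number of accessible desert regions (count, vertical axis) on each chromosome (horizontal axis), with those of the chromosome arms in blue and those around centromeres or on acrocentric short arms in orange. Chromosomes 17, 21 and 22 hold mostly orange regions (85 of 93, 101 of 159 and 78 of 85), and chromosome 4 holds the most regions, 321.

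The deserts with the most regions were of the centromeric kind. The desert of chromosome 17 between KCNJ18 and WSB1, 5.59 Mb long, held 85 regions with a median width of 2658 bp, and 72 of them were present in all 7 libraries. The acrocentric short arm of chromosome 22 before OR11H1 held 78 regions, 36 of them in all 7 libraries. The desert of chromosome 21 between LOC102723475 and LOC101927345, which contains copies of the 45S ribosomal RNA gene, held 65 regions, 40 of them in all 7 libraries. Repeats of this kind are near-identical copies, so reads counted at one copy can come from another, and these values are uncertain for the single position.

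In the arms, 621 of 833 deserts between a pair of coding genes (74.5%) held at least 1 region, and 99 of them held 10 or more. Their density was 6.13 regions per Mb of desert, against 9.67 per Mb for intergenic regions within 200 kb of a gene end that met the same requirement on the libraries. Larger deserts had a lower density, with 7.79 regions per Mb where the part beyond 200 kb was under 0.5 Mb long and 6.38, 5.70 and 5.17 per Mb for 0.5 to 1, 1 to 2 and over 2 Mb. Neighbouring regions within an arm desert were a median of 66.2 kb apart. The richest arm deserts lay between CDH11 and CDH5 (33 regions), SORCS1 and XPNPEP1 (32), TSN and CNTNAP5 (32), LSAMP and IGSF11 (30), NCAM2 and MRPL39 (28) and TENM4 and FAM181B (27). CDH11 encodes a cadherin, and LSAMP, NCAM2 and CNTNAP5 encode neural cell adhesion proteins. The regions of these deserts present in all 7 libraries ran from 2 of 33 between CDH11 and CDH5 to 8 of 27 between TENM4 and FAM181B. Of all arm regions, 597 of 3208 (18.6%) were present in all 7. Of the 33 between CDH11 and CDH5, stressed 6, 7, 8 and 9 held 33, 32, 6 and 11, and vehicle 6, 7 and 8 held 33, 4 and 32, so the libraries with short lists other than vehicle 6, which defined the set, lacked most of them.

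Genes of neural development and cell adhesion stood beside deserts in a larger share than genes at large. Of 64 genes of cell adhesion and axon guidance, 53 (82.8%) flanked a desert and 52 (81.2%) one with an accessible region, against 1523 (7.62%) and 1151 (5.76%) of all 19974 protein-coding genes. Of 70 developmental transcription factor genes, 44 flanked a desert and 39 (55.7%) one with a region, and of 43 genes of neurotransmitter receptors and ion channels, 22 and 18 (41.9%). The lists were chosen for this comparison, so the shares describe the lists. Among the transcription factor genes, NR2F2, which encodes a nuclear receptor of the COUP-TF family, had 32 regions in the deserts on its sides. SOX6 had 9, POU3F4 8, and BCL11B, EBF1, ETV1, NR2F1 and SALL3 7 each.

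Of the adhesion genes, CDH11 had 49, CNTNAP5 48, LSAMP 30 and NCAM2 29. The protocadherin genes PCDH10 and PCDH7 had 24 and 22, CDH8, CDH9 and the teneurin gene TENM2 20 each, and CDH18 19. Of the receptors and channels, the kainate receptor gene GRIK2 had 18, the metabotropic glutamate receptor gene GRM7 17 and the potassium channel gene KCND2 14. HTR2C followed with 8, GRM8 with 7, KCNJ3 with 6, GABRG1 and HTR1A with 5 each and CHRM2 with 4. A desert between a pair of listed genes, such as that of CDH8 and CDH11, counts for both, and being next to a gene does not show that a region acts on it.

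The strongest desert regions were those of ribosomal DNA and centromeric repeats. Strength was given as the rank by −log10 p, a percentile within each library among the 16871 intervals that met the requirement and were present in all 7 libraries, where 100 is the strongest. All 11 regions in ribosomal RNA genes were present in all 7 libraries, and their median rank was 99.4, 99.8, 99.9 and 99.9 in stressed 6, 7, 8 and 9 and 99.8, 99.9 and 99.3 in vehicle 6, 7 and 8. The 45S transcript is the precursor of the ribosomal RNAs, and the median of these regions was near the top in both treatments. These genes are repeats, so reads counted at one copy can come from another. Not all single regions in ribosomal RNA genes were near the top. Their lowest rank was 16.2, 6.34, 56.8 and 50.5 in stressed 6, 7, 8 and 9 and 57.4, 72.4 and 7.07 in vehicle 6, 7 and 8. The region chr21:8440291-8442735, in the 28S part of RNA45SN1, had a fold of 213.5, 160.0, 181.7 and 140.1 in stressed 6, 7, 8 and 9 and of 92.5, 149.6 and 145.9 in vehicle 6, 7 and 8. Another of them, chr21:8434548-8436514, covers the microRNA gene MIR10396B within RNA45SN1. Outside the ribosomal genes, chr21:8219462-8220779, chr1:125175601-125184537, chr1:143213873-143219291 and chr20:29444822-29445907 were among the 10 regions with the highest lowest rank, and none of these 4 overlapped an annotated gene.

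Of the arm regions, the highest lowest rank belonged to chr7:25862122-25863205, in the desert between NPVF and NFE2L3. It ranked 98.9, 98.8, 98.2 and 98.6 in stressed 6, 7, 8 and 9 and 94.8, 99.4 and 97.6 in vehicle 6, 7 and 8, so the treatments overlapped. The same desert holds MIR148A, 86.7 kb away, and 9 accessible regions in all. The next arm regions by lowest rank included 2 long noncoding RNA starts, chr12:125982950-125984543 (LINC00939 and LINC02826) and chr6:74069049-74069657 (LOC101928516). The start of LINC02826 ranked 91.9, 93.1, 90.1 and 96.9 in stressed 6, 7, 8 and 9 and 97.1, 92.3 and 89.7 in vehicle 6, 7 and 8. The others were chr12:90253674-90254255 between ATP2B1 and CCER1, chr13:80577758-80578702 beside SPRY2, an inhibitor of receptor tyrosine kinase signalling, chr21:15290250-15290989 beside NRIP1, a corepressor of nuclear receptors, chr2:41840611-41841842 beside PKDCC, chrX:147376089-147377675 beside FMR1, the gene of fragile X syndrome, chr3:117282300-117282876 beside LSAMP, and chr5:158194288-158195077 beside the transcription factor gene EBF1. The lowest rank of any of these 10 arm regions in any library was 82.9, for the region beside EBF1 in stressed 9.

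Starts of long noncoding RNAs were strong as a group. Their 25 regions present in all 7 libraries had median ranks of 72.7, 62.9, 67.4 and 58.9 in stressed 6, 7, 8 and 9 and 84.4, 67.5 and 79.2 in vehicle 6, 7 and 8. The 597 arm regions present in all 7 libraries had 32.4, 25.6, 30.1 and 31.0 in the stressed libraries and 52.2, 38.2 and 44.0 in the vehicle libraries. In each library the long noncoding RNA starts thus ranked above the arm regions, though 11 of all 58 starts were themselves centromeric or acrocentric. The 236 centromeric and acrocentric regions had 13.7, 32.0, 71.7 and 75.6 in the stressed libraries and 67.9, 76.6 and 13.5 in the vehicle libraries. They were low in the 3 libraries with the longest lists, stressed 6, stressed 7 and vehicle 8, and high in the other 4, in both treatments.

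**Figure D2:**
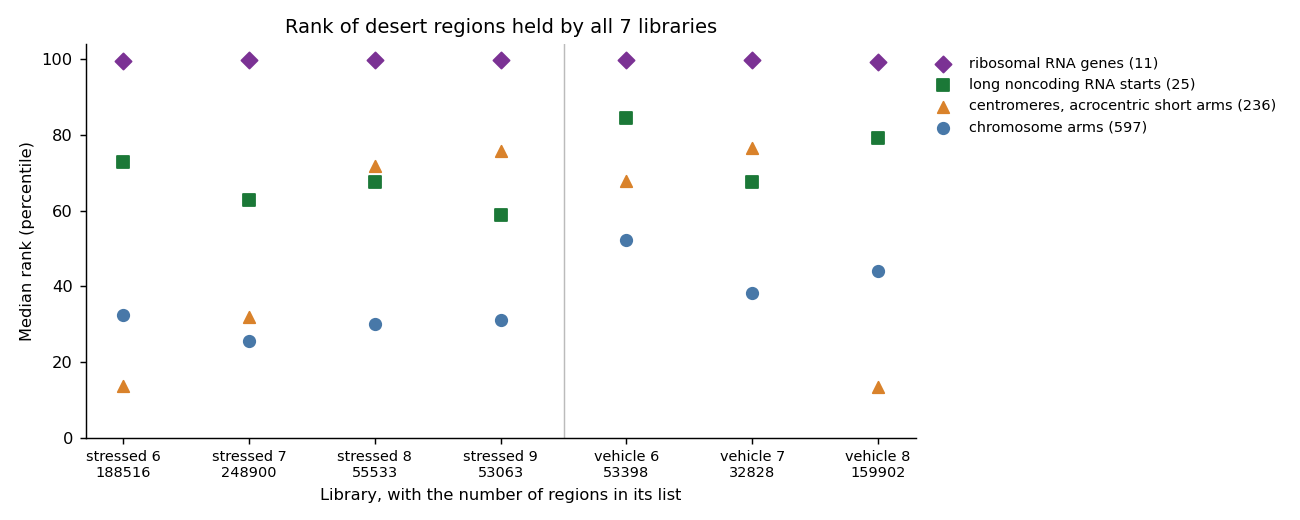
Median rank by −log10 p (percentile, vertical axis) of the desert regions present in all 7 libraries, for each library (horizontal axis, with the length of its list), in 4 classes shown by shape and colour. Ribosomal RNA genes lie at 99.3 or above, the starts of long noncoding RNAs lie between 58.9 and 84.4, and the centromeric and acrocentric regions fall to 13.7, 32.0 and 13.5 in the 3 longest lists.

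The promoter windows inside desert regions were richer in G and C than those of other desert starts. The 66 windows of 59 genes that overlapped a desert region had a median GC content of 52.7%, those of regions present in all 7 libraries 58.3% and the 1712 windows of long noncoding RNA starts in deserts without such a region 41.0%. Over all 34961 windows the median was 58.7%. The GC box was found in 31.8% of the 66 windows, against 6.72% of the 1712 and 45.0% of all, and the CCAAT box in 36.4%, 39.5% and 34.6%. The AP-1 motif (TGANTCA) was found in 6.06% of the 66, against 13.7% of the 1712 and 7.68% of all. Also searched, on both strands, were CRE (TGACGTCA), the ATF4 and C/EBP composite (TGATGNAA) and the ETS motif (CCGGAAGT). So were the E-box (CACGTG) and the NRF1 motif, and each of these was found in 1 of the 66 windows (1.52%). Their shares of the 1712, in that order, were 0.409%, 7.65%, 0.643%, 2.45% and 0.759%. Over all windows they were 1.85%, 3.62%, 4.14%, 7.27% and 1.24%. The CTCF core was found in 0 of the 66, 0.993% of the 1712 and 2.41% of all. These shares are descriptions of letters, base composition differs between the sets of windows, and motifs can overlap.

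Desert regions were present in fewer libraries than accessible regions at large. They were present in all 7 libraries in 833 of 3685 cases (22.6%), against 44.2% of all intervals that met the requirement, 21.6% of those deep inside long genes and 29.97% of intergenic ones near genes. In the lists as deposited, stressed 6, 7, 8 and 9 held 99.2%, 99.8%, 42.9% and 52.3% of the desert regions, and vehicle 6, 7 and 8 held 100%, 34.7% and 99.5%. The 3 longest lists held nearly all desert regions, and so did vehicle 6, which supplied the intervals. By annotation, the share present in all 7 libraries was 11 of 11 for ribosomal RNA genes, 43.1% for the starts of long noncoding RNAs and 19.4% for their bodies. By place it was 49.5% for centromeric and acrocentric regions and 18.6% for the arms.

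To put the libraries on one footing, the 32828 strongest regions of each, by −log10 p, were used. Of the desert regions, 44.3%, 49.4%, 33.9% and 41.1% were in this equal-size list in stressed 6, 7, 8 and 9, and 73.9%, 34.7% and 49.9% in vehicle 6, 7 and 8. For 9986 intergenic regions from 1 to 200 kb from a gene end the shares were 58.3%, 63.0%, 43.9% and 52.0% in the stressed and 74.0%, 41.4% and 59.8% in the vehicle libraries. The desert share was lower in 7 of 7 libraries, with a difference of -9.34 ± 4.77 percentage points (SD, n = 7). Presence in these lists was part of how the regions were chosen, and the list of vehicle 7 is its whole list, so this gap is a description and no test is given for it. In the equal-size list of all 7 libraries were 615 desert regions (16.7%), against 38.5% of all intervals, 18.2% of those inside long genes and 24.3% of those near genes. When all genes, and not only protein-coding ones, defined the deserts, 266 regions remained and the difference turned to 6.89 percentage points in favour of the deserts.

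Regions equally far from gene ends, but inside long genes, were closer to the desert regions. The 965 regions inside a protein-coding gene body and over 200 kb from every gene end had shares of 51.8%, 55.6%, 35.9% and 42.4% in the stressed and 75.9%, 33.7% and 56.0% in the vehicle libraries. The desert share differed by -3.44 ± 3.18 percentage points (SD, n = 7) and was lower in 6 of 7 libraries, again as a description. This difference turned to 1.13 percentage points when only regions with a −log10 q of at least 5 were kept, and in the arms alone it was -5.34 percentage points, lower in 7 of 7 libraries. Median rank and width were compared by exact sign-flip tests, two-sided, with Benjamini-Hochberg adjustment over 6 tests, and no difference passed. The 6 include the tests of the share, which are not read. The rank of desert regions was 0.0677 percentile points above that of regions near genes (exact sign-flip permutation p = 1) and 1.92 above that of regions inside long genes (p = 0.422), with SDs of 7.97 and 6.11 over the 7 libraries. The log2 width differed by -0.04 from regions near genes (exact sign-flip permutation p = 0.234) and by 0.05 from regions inside long genes (p = 0.0469, adjusted p = 0.0938). Both signs depend on the choice of deserts. In the arms alone the width difference from regions inside long genes was -0.089, negative in 7 of 7 libraries. The arms were set apart after the data were seen, so no test is given for them. With a limit of 500 kb the width difference from regions near genes was 0.15 and that from regions inside long genes -0.10.

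**Figure D3:**
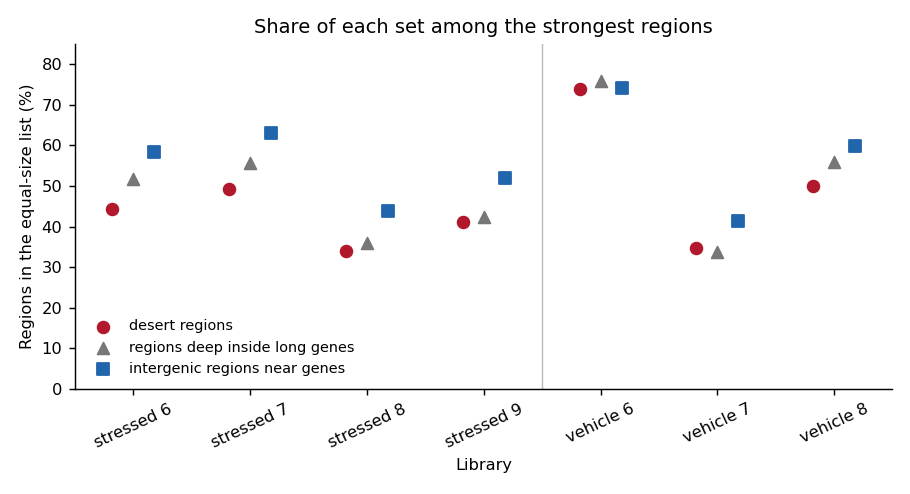
Share of each set of regions that was among the 32828 strongest regions (percent, vertical axis) of each library (horizontal axis, stressed left of the line, vehicle right). Desert regions (red circles) lie below intergenic regions near genes (blue squares) in each of the 7 libraries, with the smallest gap in vehicle 6, 73.9% against 74.0%.

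In each stressed library a smaller share of the strongest regions lay in deserts than in each vehicle library, but the difference did not pass the adjustment. Here deserts were taken from gene positions alone, without the requirement on other libraries. Of the 32828 strongest regions, 6.49%, 6.71%, 5.92% and 6.63% lay in deserts in stressed 6, 7, 8 and 9, and 10.4%, 7.44% and 7.38% in vehicle 6, 7 and 8. Vehicle 6 stood above the other 6 libraries. The mean was 6.44% ± 0.358 in stressed (SD, n = 4) and 8.40% ± 1.72 in vehicle libraries (SD, n = 3). The difference of -1.97 percentage points was larger than the SD of each group but smaller than the range of the vehicle libraries, 7.38% to 10.4%. The exact permutation p was 0.0286, two-sided, the smallest that 35 assignments allow. The adjusted p over 4 tests was 0.0571, which did not pass. The 4 include the test of the share gap described below, which is not read. Without vehicle 6 the difference was -0.974 percentage points, and in the lists as deposited it was -0.207 (exact permutation p = 1). In the arms alone the shares were 5.82%, 5.96%, 4.65% and 5.54% in the stressed and 9.04%, 5.87% and 6.76% in the vehicle libraries. There stressed 7 was above vehicle 7, and the difference was -1.73. No test is given for the arms, which were set apart after the data were seen. Of the mesenchymal and endothelial marker genes, PDGFRB had an accessible end in 4 stressed libraries and COL1A1 in 3, and neither had one in a vehicle library. COL3A1, PECAM1 and CDH5 had one in no library. The counts of glial markers overlapped (3, 4, 1 and 3 of 7 in stressed and 0, 1 and 3 in vehicle libraries). The part of these markers in the difference in desert share was not tested.

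**Figure D4:**
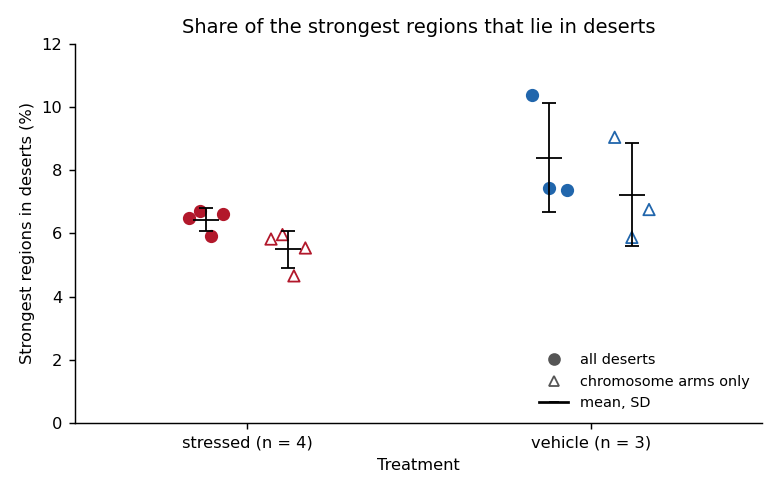
Share of the 32828 strongest regions of each library that lay in deserts (percent, vertical axis), for stressed and vehicle libraries (horizontal axis), with filled circles for all deserts, open triangles for the chromosome arms only, and bars for mean and SD. For all deserts the 4 stressed libraries lie between 5.92% and 6.71%, below the 3 vehicle libraries at 7.38% to 10.4%.

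The gap between desert regions and regions near genes was also set against treatment, since the same requirement on the libraries chose both sets. The gap in the equal-size list was -14.1, -13.7, -9.93 and -10.9 percentage points in stressed 6, 7, 8 and 9 and -0.0852, -6.78 and -9.95 in vehicle 6, 7 and 8. The means were -12.1 ± 2.04 in stressed and -5.61 ± 5.03 in vehicle libraries (SD, n = 4 and 3), a difference of -6.53. Without vehicle 6, which supplied the intervals, the difference was -3.77, and in the full deposited lists it was -2.84, so it is given with no test. In the median rank the gap differed by -9.77 percentile points (exact permutation p = 0.114, two-sided). It differed by -1.18 with deserts free of all genes and by -4.37 with a −log10 q of at least 5. In log2 width the gap differed by -0.11 (exact permutation p = 0.0286, adjusted p = 0.0571), so neither passed. Vehicle 6 alone had a width gap above 0, at 0.11. Without vehicle 6 the rank difference was -6.64 and the width difference -0.072. With the desert regions limited to the arms, the rank gap was -5.35, -6.40, -7.29 and -5.14 in stressed 6, 7, 8 and 9. It was 11.9, 0 and 3.41 in vehicle 6, 7 and 8, a difference of -11.2 without overlap. Many regions share a rank, so median ranks move in steps. In vehicle 7 both medians were 38.2, which gave the gap of 0. The regions near genes were not limited in this way and kept 267 centromeric or acrocentric ones. This division was made after the data were seen, and vehicle 6, with the highest gap, supplied the intervals, so no test is given.

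Of the single desert regions whose ranks did not overlap between treatments, most ranked lower in the stressed libraries. Among the 833 regions present in all 7 libraries, 121 (14.5%) ranked lower in each stressed than in each vehicle library, against 7.18% of all intervals present in all 7. Only 8 (0.960%) ranked higher in each stressed library, against 5.73% of all intervals. Of the 121, 117 lay in the arms, where they made 19.6% of 597 regions, and 4 were centromeric or acrocentric, 1.69% of 236. Regions near genes had 348 of 2993 (11.6%) lower and 125 (4.18%) higher, and regions inside long genes 36 of 208 (17.3%) lower and 6 (2.88%) higher. The median difference in mean rank, stressed minus vehicle, was -7.23 percentile points over the 833 desert regions, -3.04 over those near genes, -7.99 over those inside long genes and 0.254 over all 16871. Ranks are relative, so a lower rank does not show that a region lost accessibility.

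Of the 5 largest differences toward a lower rank in the stressed libraries, 4 are described here. The region chr11:81763217-81763665, between the teneurin gene TENM4 and FAM181B, ranked 7.50, 3.26, 1.56 and 4.93 in stressed 6, 7, 8 and 9 and 69.8, 61.8 and 53.9 in vehicle 6, 7 and 8. The region chr4:36771504-36771846, between DTHD1 and NWD2, ranked 16.2, 9.87, 4.72 and 11.7 in the stressed and 73.0, 72.4 and 56.9 in the vehicle libraries. Presence in all libraries and ranks that lay apart between treatments were conditions of the choice, so they are no further result. The region chr8:125767840-125769312, 329.4 kb from TRIB1, the gene of a pseudokinase, ranked 6.65, 2.63, 9.59 and 0.0385 in the stressed and 75.9, 54.9 and 50.6 in the vehicle libraries. The ranks of this region too were apart by that choice. The last, chr8:82464245-82465283 between SNX16 and RALYL, lay in the body of a long noncoding RNA and ranked 29.6, 21.9, 50.7 and 15.9 in the stressed and 78.4, 80.0 and 79.2 in the vehicle libraries.

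Of the 8 regions that ranked higher in the stressed libraries, the largest difference was at chr16:34590679-34591052, in a centromeric desert. It ranked 99.1, 99.8, 62.5 and 99.8 in stressed 6, 7, 8 and 9 and 33.6, 46.9 and 4.91 in vehicle 6, 7 and 8. In stressed 6, 7 and 9 these values belong to regions of 5516, 6784 and 6691 bp that reach far beyond the interval itself. The region chr14:105852501-105853490, at the immunoglobulin heavy chain gene IGHM, ranked 72.7, 58.1, 81.6 and 62.4 in the stressed and 12.4, 46.9 and 38.8 in the vehicle libraries. The region chr4:32472615-32473610, 1325.8 kb from the nearest coding gene end in the desert of PCDH7 and ARAP2, ranked 74.8, 41.1, 78.8 and 68.9 in the stressed and 33.6, 38.2 and 21.9 in the vehicle libraries. PCDH7 encodes a protocadherin of neurons, and stressed 7 lay only just above vehicle 7 there. The other 2 of the 5 lay between NEDD1 and TMPO (chr12:98127375-98128033) and between the cadherin genes CDH18 and CDH12 (chr5:20972546-20972971), where the lowest stressed ranks were 52.5 and 62.4 and the highest vehicle ranks 46.4 and 58.4.

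**Figure D5:**
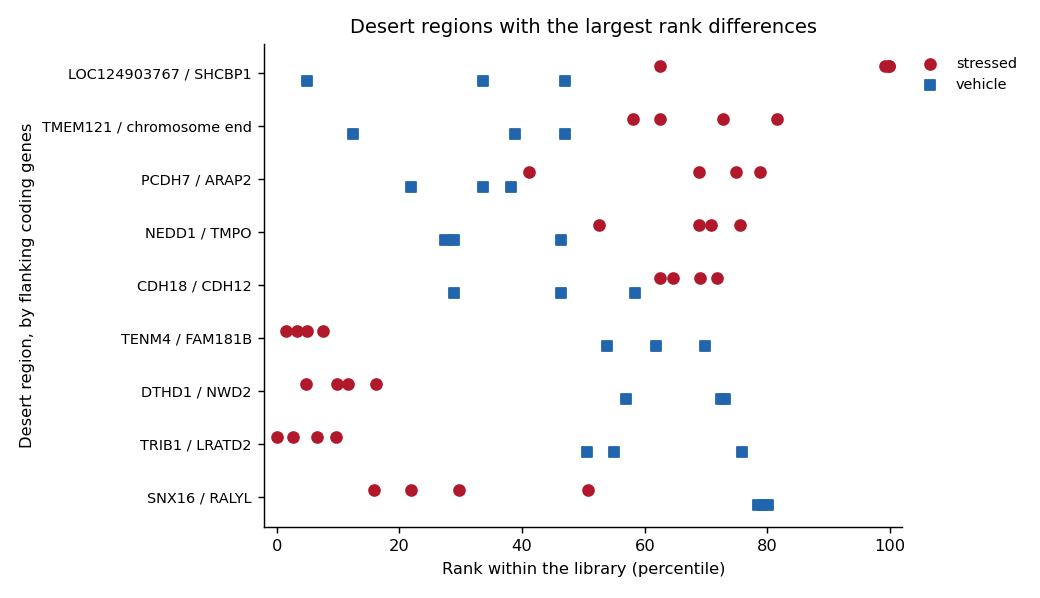
Rank by −log10 p within each library (percentile, horizontal axis) of 9 desert regions among those with the largest differences whose ranks do not overlap, named by the coding genes on their sides (vertical axis). Stressed libraries are red circles and vehicle libraries blue squares, and the top 5 rows rank higher and the bottom 4 lower in the stressed libraries.

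Most desert regions were missing from at least 1 library, and so were most of the regions farthest from coding genes. The share present in all 7 libraries was 49.5% for all centromeric and acrocentric regions and 18.6% for all arm regions. The 5 farthest overall lay on the acrocentric short arm of chromosome 22, the first of them at chr22:10687249-10687583, 4813.4 to 4840.6 kb from a coding gene end, and 2 of them were present in all 7 libraries. The farthest of all ranked 13.7, 10.6, 1.56 and 8.03 in stressed 6, 7, 8 and 9 and 73.0, 46.9 and 36.9 in vehicle 6, 7 and 8, so each stressed rank was below each vehicle rank. In the arms the 5 farthest all lay in the desert between PCDH7 and ARAP2, 2080.6 to 2278.9 kb from a coding gene end. Of these only chr4:33924324-33924851, in the body of the long noncoding RNA LOC101928622, was present in all 7 libraries, with ranks of 53.6, 35.6, 67.4 and 41.2 in stressed 6, 7, 8 and 9 and 46.4, 38.2 and 48.9 in vehicle 6, 7 and 8. The treatments overlapped at that arm region.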

How the data were processed

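ATAC-seq of 4 stressed and 3 vehicle libraries was used as 1 list of peaks per library. Each list is the MACS2 output of a single library, per the file headers. The submitters' processing notes name FastQC, Bowtie2, Picard and hg38. Neither a shift of reads for the Tn5 offset nor the MACS2 settings, which bear on how many and how wide regions are, was given in those sources. The deposited lists give each peak a position, a score, a fold enrichment as a ratio over background, a −log10 p-value and a −log10 q-value, all from the authors' caller. A ratio (pileup + 1) / (background + 1) gave whole pileups for 100% of peaks at a tolerance of 0.02, so the background shows relative depth.

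Chromosomes 1 to 22 and X were kept. Regions were matched by an overlap of at least 1 bp, and the matching region of largest −log10 p gave the rank, fold and width, so 1 wide region can serve several intervals (0 to 9.96% of desert regions per library). Coordinates are 1-based on hg38. Genes came from RefSeq (GRCh38.p14, 19974 protein-coding), a table without strand that includes some genes of alternative contigs. Stretches over 2 Mb without any RefSeq gene marked the deserts around centromeres and, on chromosomes 13, 14, 15, 21 and 22, the short arms. For gaps given in the arms alone, only the desert regions were limited to the arms. The 9986 regions near genes and the 965 inside long genes were kept whole.

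Libraries were compared by exact permutation, 6 sign-flip tests over 7 libraries and 4 tests between treatments, each family with Benjamini-Hochberg adjustment. Tests of the share of chosen regions in the lists were not read, because presence in the lists had chosen the regions. They still count in both families, so the adjusted p-values depend on them. Overlaps and distances were tested on simulated intervals against bedtools 2.31.1, and rank counts on simulated ranks. The regions named were the 10 with the highest lowest rank, the 5 farthest from a coding gene, the 3 deserts with the most regions, the 5 of largest rank difference in each direction and the 3 on each side of the distance limit. The same choices in the arms alone were added after the data were seen, and so were the microRNA and long noncoding RNA examples. From each gene list the 10 genes with the most regions were taken, as far as they had any. Some items that these rules name are not reported here. The desert regions, lists and tests were chosen with earlier results of these data known. Python 3.11.15, numpy 2.4.6, pandas 2.3.3, scipy 1.17.1 and matplotlib 3.10.9 were used.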

Additional observations from a re-analysis of the deposited data

How the results depend on the processing

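Of 203 recomputed values, 126 kept direction and side of the unadjusted threshold (counts within 1.5 times), 44 were weaker, 5 stronger, 18 counts or values moved and 10 reversed. The cause of these changes was not tested. No test passed the adjustment in the main settings, so the p-values below are unadjusted exact permutation p-values.

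In the share of the equal-size list, the gap of desert regions to regions inside long genes was -1.16 with lists of 16414 regions, -0.608 in the full deposited lists, -2.74 with an overlap of 50% of the interval, 1.13 with a −log10 q of at least 5, -1.57 with a limit of 500 kb, 9.57 with deserts free of all genes and -1.09 with intervals of vehicle 7. The gap to regions near genes was 6.89 with deserts free of all genes and -4.24 with intervals of vehicle 7. The gap in log2 width to regions near genes was 0.15 at 500 kb, 1.64 with deserts free of all genes (exact permutation p = 0.0156 each) and -0.18 in the arms. To regions inside long genes it was 0.074 with an overlap of 50% (exact permutation p = 0.172), 0.070 with −log10 q of at least 5 (p = 0.469) and 0.029 at 100 kb (p = 0.188). It was -0.10 at 500 kb (exact permutation p = 0.25) and -0.089 in the arms. The rank gap to regions near genes was -1.26 in the arms. No test is given in the arms, which were set apart after the data were seen.

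Between treatments, the desert share of the strongest regions differed by -0.207 in the full deposited lists (exact permutation p = 1), -0.175 with deserts free of all genes (p = 0.0571) and -1.73 in the arms. The treatment difference in the width gap was -0.083 with −log10 q of at least 5 (exact permutation p = 0.2), -0.085 at 500 kb (p = 0.286), -0.41 with deserts free of all genes (p = 0.4) and -0.14 in the arms. That in the share gap was -6.25 with intervals of vehicle 8, -7.78 in the arms, -2.84 in the full deposited lists and -3.47 with deserts free of all genes. That in the rank gap was -11.2 in the arms, -4.37 with −log10 q of at least 5 (exact permutation p = 0.686) and -1.18 with deserts free of all genes (p = 1). Regions ranking higher and lower in all stressed libraries numbered 4 and 73 of 497 with an overlap of 50% and 21 and 188 of 1337 at 100 kb. They numbered 3 and 47 of 371 at 500 kb and 0 and 7 of 112 with deserts free of all genes. With −log10 q of at least 5, 54 of 444 were lower. The totals are the desert regions present in all 7 libraries. The share over all intervals is not given at these settings, so the counts are not read against it.

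With the differentiation number as a replicate block, 3 pairs allow no exact permutation p below 0.25, and the desert share differed by -2.03 and the width gap by -0.11 (p = 0.25 each). Same-numbered libraries had correlations of -0.101, -0.00514 and -0.122 of their deviations in rank. Between treatments, libraries with different numbers had -0.167 to 0.298, the highest for stressed 6 and vehicle 8. These correlations gave no sign of pairing, but they cannot exclude it. Both treatments carry the numbers 6, 7 and 8, and the labels do not say that a number marks a shared batch.

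Leaving out 1 library gave, for the gap to regions near genes, -10.9 to -8.55 in share, -1.91 to 1.91 in rank and -0.062 to -0.023 in log2 width, and to regions inside long genes -4.17 to -2.75, 0.798 to 3.16 and 0.033 to 0.066. Between treatments it gave -2.48 to -0.974 in desert share, -8.70 to -3.77 in the share gap, -14.4 to -6.64 in the rank gap and -0.14 to -0.072 in the width gap, with the smaller size of each without vehicle 6. Of the 833 desert regions present in all 7 libraries, 15 to 34 ranked higher and 134 to 204 lower without overlap, since fewer libraries had to separate. The share over all intervals is not given for these counts either. What depth limits in the shorter lists was not tested.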
